A study of Mus musculus with 6 samples.

Results

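The 10 genes described here encode costimulatory and death receptors of the TNF receptor superfamily: Tnfrsf4 (OX40), Tnfrsf9 (4-1BB), Tnfrsf18 (GITR), Tnfrsf1a (TNFR1), Tnfrsf1b (TNFR2), Tnfrsf8 (CD30), Tnfrsf25 (DR3), Tnfrsf14 (HVEM), Cd27 and Fas (CD95). They were chosen by symbol, by matching the Ensembl identifiers of the count tables to the GENCODE M21 annotation, and all 10 were found among the 54446 genes listed. The RNA came from Treg cells (regulatory CD4 T cells, defined by the transcription factor Foxp3), sorted as live CD45+ CD4+ GFP+ cells from subcutaneous tumours of B16F10, a mouse melanoma cell line. Both groups carry a Foxp3-driven Cre recombinase, so that deletion is aimed at cells that express Foxp3. The 3 control libraries are titled WT Control but have 1 floxed Ythdf2 allele (Foxp3Cre Ythdf2fl/+). The controls may therefore have lost that allele in Treg cells and are not wild type. In the other 3 libraries, labelled Ythdf2 cKO and called cKO from here on, both alleles are floxed (Foxp3Cre Ythdf2fl/fl). The labels give 2 cages. Cage 1 holds 2 controls (replicates 1 and 2) with cKO replicate 1, and cage 2 holds the third control with both other cKO libraries. The labels state neither the age of the mice nor whether the libraries of a group come from different mice. P-values therefore reflect the spread among these libraries, part of which may be technical.

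Receptors of this family are bound by trimeric ligands, which cluster them at the cell surface. Costimulatory members such as OX40, 4-1BB, GITR and TNFR2 recruit TRAF adaptors and activate NF-kB, while Fas and TNFR1 carry a death domain that can start apoptosis. OX40, 4-1BB, GITR and TNFR2 are known as abundant surface proteins of Treg cells in tumours, where antibodies have been directed at several of them. YTHDF2 recognises m6A (N6-methyladenosine), a mark of mRNA often placed in the sequence GGACT, and brings the marked mRNAs to decay.

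The sequence context of GGACT was read from the GENCODE M21 coding transcript of each receptor, since the study deals with an m6A reader. Every one of the 10 transcripts held the 5 letters at least once on its own strand. Cd27 held 7 matches, 6 of them in the coding part, which is 4.49 per kb. Among 11478 tested genes with a coding transcript the median was 1.05 per kb and the 90th percentile 2.07 per kb, and Cd27 lay above 99.7% of them. Tnfrsf1a, with 5 matches or 2.32 per kb, was also above that percentile, and Tnfrsf25, with 1 match or 0.624 per kb, lay above 24.5% of the genes. The other receptors had 0.841 (Tnfrsf18) to 1.97 (Tnfrsf14) matches per kb. The match nearest the stop codon is shown for the 4 most abundant receptors, for Cd27 as the richest in matches and for Tnfrsf1a, whose level followed another order of libraries. Each line runs 5′ to 3′ in mm10 with GGACT in capitals.
Tnfrsf4: gtctggcccaGGACTtctgagttgc
Tnfrsf9: gatgtgaaaaGGACTgcaggcctgg
Tnfrsf18: caggcaaggaGGACTgtccaaaaga
Tnfrsf1b: gctgatgttaGGACTggtgaactgc
Cd27: ctatccaggaGGACTaccggaaacc
Tnfrsf1a: ttaggaagagGGACTtgaacttcaa
The capitals of Tnfrsf4 lie at chr4:156016030-156016034 and those of Tnfrsf9 at chr4:150932411-150932415, both on the plus strand. Those of Tnfrsf18 lie at chr4:156027323-156027327 on the plus strand and those of Tnfrsf1b at chr4:145223535-145223539 on the minus strand. Those of Cd27 lie at chr6:125233342-125233346 on the minus strand. The Tnfrsf1a match, at chr6:125362021-125362025 on the plus strand, begins 29 bases after the first base of the stop codon, and the other 5 lie in coding exons. A match describes the letters only, and no methylation was measured in these libraries.

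Promoters were searched for GGGNNNTTCC, a core of the NF-kB binding site, on both strands in the 250 bases before each start in RefSeq (GRCm38.p6). All 10 receptor genes matched the promoter table, with 12 starts in all. A match was found at 2 of the 12 starts (16.7%) and at 1527 of the 32851 starts in the table (4.65%). Those before Tnfrsf9 and Tnfrsf25 are printed as the only receptor starts with a match, on the plus strand of chromosome 4 with the matched letters in capitals.
Tnfrsf9: cagagcagctGGGGATTTCCcaggaggccc
Tnfrsf25: tgagacccagGGAAAAGCCCctggctctgg
The Tnfrsf9 window, chr4:150927946-150927975, holds a match that begins 43 bases before the second annotated start, and it overlaps an annotated exon of the gene in GENCODE M21. The Tnfrsf25 window, chr4:152115706-152115735, lies outside the gene, with a match on the minus strand 218 bases before the first start. No binding was measured.

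Of the 10 genes, 7 lie on chromosome 4 within 10.8 Mb. Tnfrsf4 (ENSMUSG00000029075, chr4:156013843-156016612) and Tnfrsf18 (ENSMUSG00000041954, chr4:156026164-156028895) are separated by 9.55 kb with no coding gene between them. Tnfrsf1b (ENSMUSG00000028599, chr4:145213463-145246870) and Tnfrsf8 (ENSMUSG00000028602, chr4:145267137-145315164) are 20.3 kb apart, again with 0 coding genes between. Tnfrsf9 (ENSMUSG00000028965) spans chr4:150914562-150946102, Tnfrsf25 (ENSMUSG00000024793) chr4:152115934-152120119 and Tnfrsf14 (ENSMUSG00000042333) chr4:154921933-154928563. Cd27 (ENSMUSG00000030336, chr6:125232622-125237010) and Tnfrsf1a (ENSMUSG00000030341, chr6:125349362-125362484) lie 112 kb apart on chromosome 6, and Fas (ENSMUSG00000024778) spans chr19:34290666-34327772. The antisense gene Gm16008 shares 414 exon bases with Tnfrsf18. It held 8 to 43 counts per library against 1138 to 4655 for Tnfrsf18, and the sources used here do not state whether counting used the strand.

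The libraries held 5602053 to 13602069 gene counts, and 59.4% of the variance between them lay along a first principal component whose ends were cKO replicate 1 and control replicate 3. Ythdf2 itself, at 124, 102 and 93.1 CPM (reads of a gene relative to the TMM-adjusted size of the library) in control replicates 1 to 3 and 90.1, 104 and 104 CPM in the libraries labelled cKO, did not pass the test (log2 fold change -0.10, standard error 0.16, edgeR quasi-likelihood test with Benjamini-Hochberg adjustment over all genes, adjusted p = 1.00). The count table therefore gives no check of the deletion, and groups are named as labelled. The 6 defining Treg genes Foxp3, Cd4, Cd3e, Il2ra, Ctla4 and Ikzf2 were present in all libraries, at a summed 5940, 5237 and 3225 CPM in control replicates 1 to 3 and 5835, 4435 and 3643 CPM in the libraries labelled cKO. Melanoma markers (8 genes) summed to 355, 472 and 4867 CPM in the controls and 48.2, 2333 and 3204 CPM in the libraries labelled cKO, so the 3 libraries of cage 2 held the most. Macrophage and monocyte markers (12 genes) summed to 17.6, 51.4 and 249 CPM and to 8.84, 16.8 and 113 CPM. Markers of dendritic cells (7 genes) summed to 17.3 to 44.1 CPM, of B and plasma cells (7) to 82.7 to 201 CPM, of CD8 T and NK cells (6, with 1 at 0 in all libraries) to 17.8 to 33.6 CPM, of neutrophils and mast cells (6, with 2 at 0) to 0 to 3.63 CPM, of fibroblasts and endothelial cells (8) to 60.7 to 237 CPM and of erythroid cells (5) to 0.618 to 147 CPM. In sorted bulk samples, fewer cells of a type and less RNA per cell cannot be told apart.

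The 4 receptors best known in tumour Treg cells were the most abundant, and they stood well above the other 6. As mean CPM per kb of exon over the 6 libraries, Tnfrsf4 had a level of 291, Tnfrsf9 of 219, Tnfrsf18 of 185 and Tnfrsf1b of 112. Each of these 4 levels lay above those of at least 98.1% of the genes tested. By mean CPM, without division by exon length, the same 4 led in the order Tnfrsf9, Tnfrsf1b, Tnfrsf4 and Tnfrsf18. Cd27, the receptor for CD70, followed at 34.4 CPM per kb. The other 5 were lower, with Tnfrsf14 at 10.6, Tnfrsf8 at 9.31, Fas at 8.52, Tnfrsf1a at 6.06 and Tnfrsf25 at 4.44 CPM per kb. Tnfrsf25 was thus near the middle of the genes tested, above 49.6% of them.

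**Figure D1:**
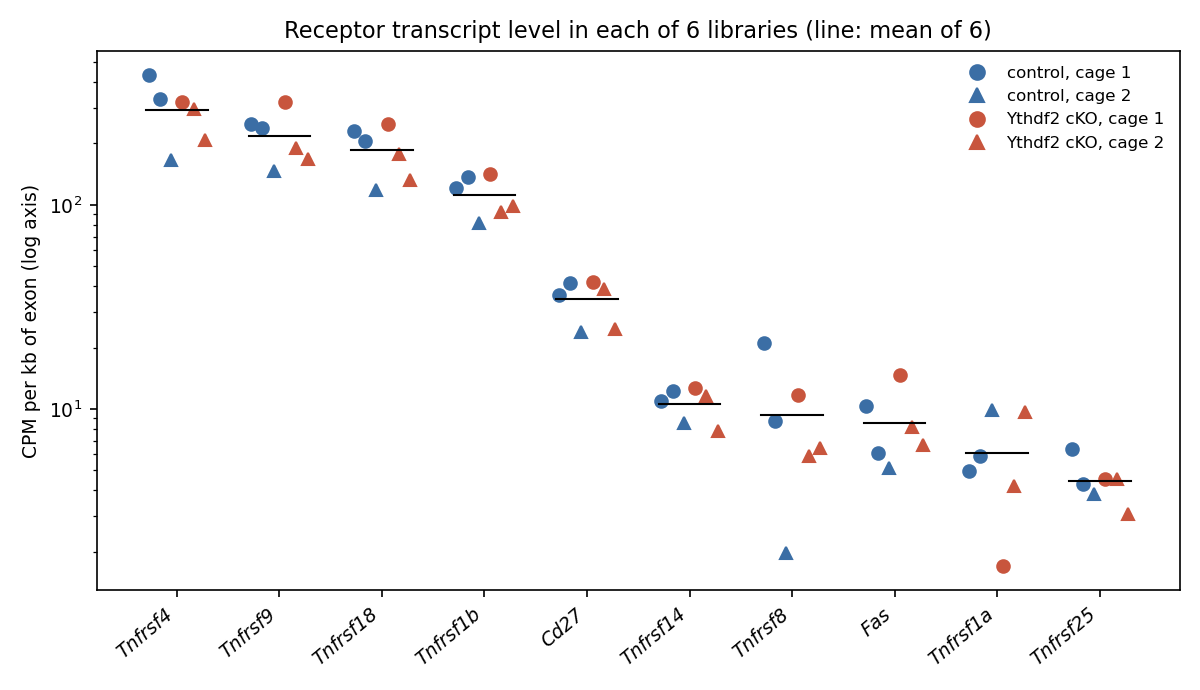
CPM per kb of exon (log axis) of each of the 10 receptor genes in each of the 6 libraries, with genotype by colour, cage by symbol and the mean of the 6 as a line. Tnfrsf4, Tnfrsf9, Tnfrsf18 and Tnfrsf1b lie above the other receptors in every library, and Tnfrsf8 and Tnfrsf1a spread most.

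The upper part of this order was repeated within libraries, and the lower part was not. The order itself came from the means of the same 6 libraries, so the p-values below are no independent support for it. Neighbours in the order were compared by the log2 ratio of their per-kb levels within a library (exact two-sided sign-flip permutation over 6 libraries, 9 pairs, smallest possible p = 0.0313). Tnfrsf9 exceeded Tnfrsf18 in 6 of 6 libraries, with a mean log2 ratio of 0.24 ± 0.12 (SD, n = 6). Tnfrsf18 exceeded Tnfrsf1b by 0.70 ± 0.22, Tnfrsf1b exceeded Cd27 by 1.71 ± 0.24 and Cd27 exceeded Tnfrsf14 by 1.68 ± 0.10, each in 6 of 6 libraries. Each of these 4 ratios reached the smallest possible exact p, and the adjusted p was 0.0703, so the order did not pass the threshold after adjustment. Tnfrsf4 exceeded Tnfrsf9 in 5 of 6 libraries by 0.40 ± 0.30 (exact permutation p = 0.0625, adjusted p = 0.113), and the exception was cKO replicate 1, at 319.5 CPM per kb for Tnfrsf4 and 320.4 for Tnfrsf9. Among Tnfrsf14, Tnfrsf8, Fas, Tnfrsf1a and Tnfrsf25 no neighbour differed beyond the spread, with mean log2 ratios of -0.11 to 0.62 and SDs of 0.84 to 1.46 (exact permutation p from 0.281 to 0.75).

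The receptors differed in how far they moved between libraries. Tnfrsf8, the receptor for CD30 ligand, ranged 10.8-fold from its lowest to its highest library and Tnfrsf1a 5.82-fold. Tnfrsf14, Tnfrsf1b and Cd27 varied least, at 1.62-fold, 1.73-fold and 1.76-fold. The other 5 ranged by up to 2.87-fold (Fas). Depth limits the low end: Tnfrsf1a rested on 27 counts in cKO replicate 1 and Tnfrsf8 on 43 in control replicate 3, while Tnfrsf9 had 2534 to 9625 counts.

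The study asks how Ythdf2 deletion changes gene expression in tumour Treg cells. None of the 10 receptor genes differed between the genotypes past the threshold, and in all 10 the libraries of one group overlapped those of the other. The edgeR test called 0 of 10 receptors and 0.00% of all 13172 genes tested. At an unadjusted p under 0.05 it had 0 of 10 receptors and 1.62% of all genes, and limma-voom and DESeq2 also called 0 receptors. Groups that did not overlap were found for 0 of 10 receptors and 7.62% of all genes. The median log2 fold change of the receptors was -0.0098, with 5 above and 5 below 0, against -0.0049 over all genes tested.

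Among the costimulators with the highest levels, the genotype differences were small against the spread. Tnfrsf4, which supports T cell survival, was at 589, 449 and 227 CPM in control replicates 1 to 3 and 436, 402 and 284 CPM in the libraries labelled cKO. Control replicate 1 was the highest and control replicate 3 the lowest, and the other group lay between them. The means were 422 ± 183 and 374 ± 79.9 CPM (SD, n = 3 each), and the log2 fold change was -0.17, with a 95% interval from -0.98 to 0.63 (edgeR adjusted p = 1.00, as for each receptor in this comparison). Tnfrsf9, a receptor induced by T cell activation, was at 675, 651 and 399.8 CPM in the controls and 872, 517 and 457 CPM in the libraries labelled cKO. cKO replicate 1 was the highest library, the controls of cage 1 came next and the libraries of cage 2 were the 3 lowest. The log2 fold change was 0.10 (95% interval -0.62 to 0.82).

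Tnfrsf18, the receptor for GITR ligand, was at 349, 315 and 180 CPM in the controls and 378, 270 and 201 CPM in the libraries labelled cKO. The group means of 281 ± 89.7 and 283 ± 89.2 CPM (SD, n = 3 each) were nearly equal, and the libraries of cage 2 were again the 3 lowest. The interval of the log2 fold change, from -0.72 to 0.74, includes 0 and is wide against that gap. Tnfrsf1b, the TNF receptor that promotes Treg expansion, was at 461, 521 and 313 CPM in the controls and 541, 353 and 376 CPM in the libraries labelled cKO. Its log2 fold change was -0.029 (95% interval -0.61 to 0.56).

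**Figure D2:**
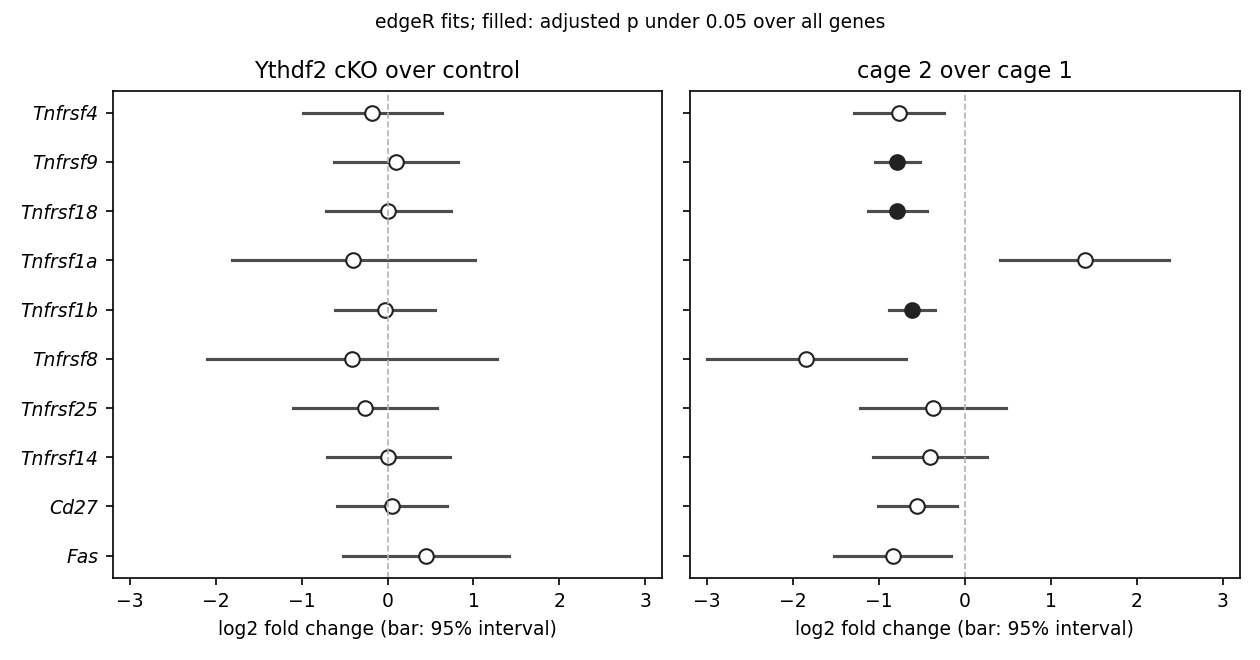
Log2 fold changes of the 10 receptor genes for the libraries labelled cKO against control and for cage 2 against cage 1, with 95% intervals from edgeR and filled points for an adjusted p under 0.05. All genotype intervals include 0, while in the cage comparison 3 receptors passed the threshold and Tnfrsf1a alone lies above 0.

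The remaining receptors had lower levels. Cd27 was at 84.3, 96.0 and 55.5 CPM in the controls and 97.8, 90.03 and 57.3 CPM in the libraries labelled cKO, with a log2 fold change of 0.053 (95% interval -0.59 to 0.69). In both groups 1 library of cage 2 was the lowest. Tnfrsf14, which binds LIGHT and BTLA, was at 15.7, 17.6 and 12.3 CPM against 18.2, 16.7 and 11.2 CPM, with a log2 fold change of 0.011 (95% interval -0.70 to 0.72). Tnfrsf25, the receptor for TL1A, was at 14.6, 9.81 and 8.68 CPM against 10.3, 10.3 and 6.96 CPM, with a log2 fold change of -0.26 (95% interval -1.10 to 0.57). Both genes overlapped between the groups.

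Tnfrsf8 spread more within the controls than between the genotypes. It was at 73.2, 30.1 and 6.78 CPM in the controls and 40.6, 20.3 and 22.3 CPM in the libraries labelled cKO, so the controls held both the highest and the lowest library (log2 fold change -0.41, 95% interval -2.10 to 1.28). The death receptor Fas was at 21.4, 12.5 and 10.6 CPM in the controls and 30.3, 16.9 and 13.7 CPM in the libraries labelled cKO. cKO replicate 1 was the highest, but control replicate 1 lay above both other libraries of that group. Fas had the smallest unadjusted p of the 10 (0.311), with a log2 fold change of 0.45 (standard error 0.41, 95% interval -0.51 to 1.41), which was 0.037 without cKO replicate 1 and 0.80 without control replicate 1. Tnfrsf1a, the other death domain receptor, was at 12.8, 15.2 and 25.7 CPM in the controls and 4.42, 10.9 and 25.1 CPM in the libraries labelled cKO, and its highest libraries were 1 of each group, both from cage 2 (log2 fold change -0.40, 95% interval -1.81 to 1.01).

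Within the cages the differences of 8 receptors had the same sign in both, though each cage holds a single library of one genotype. The single libraries, cKO replicate 1 and control replicate 3, were the ends of the first principal component. On it the libraries labelled cKO lay to the same side of the controls in both cages. A shared sign is therefore no independent repeat of a genotype difference, and its share over all genes was not computed. The mean log2 CPM of the libraries labelled cKO lay above that of the controls in both cages for Tnfrsf9 (0.40 in cage 1, 0.28 in cage 2), Tnfrsf18 (0.19, 0.38), Tnfrsf1b (0.14, 0.22), Tnfrsf14 (0.13, 0.15), Cd27 (0.12, 0.37) and Fas (0.88, 0.52). It lay below in both for Tnfrsf1a (-1.61, -0.63) and Tnfrsf25 (-0.21, -0.033). Tnfrsf4 (-0.24, 0.57) and Tnfrsf8 (-0.21, 1.62) had opposite signs in the cages. A test of the interaction of genotype and cage over 16260 genes, chosen after the data were seen, gave 0.88 for Tnfrsf4 (unadjusted p = 0.0334, edgeR adjusted p = 0.362) and 2.02 for Tnfrsf8 (unadjusted p = 0.0174, edgeR adjusted p = 0.316). Those 2 of the 10 receptors had an unadjusted p under 0.05, against 12.7% of all genes, and 0 receptors passed after adjustment, against 0.0554% of all genes.

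With cage as a term in the genotype fit, the edgeR test again called 0 of 10 receptors and 0.00% of 14235 genes. An unadjusted p under 0.05 was found for 3 of the 10 receptors and for 9.54% of all genes. The 3 were Tnfrsf9, with a log2 fold change of 0.33 (standard error 0.12, unadjusted p = 0.0180, edgeR adjusted p = 0.484), Tnfrsf1a with -1.04 (0.44, 0.0404 and 0.515) and Fas with 0.69 (0.30, 0.0481 and 0.524). The sign turned against the fit without cage for Tnfrsf4 (0.16), Tnfrsf1b (0.17) and Tnfrsf8 (0.54).

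Between the cages 3 of the 4 abundant receptors differed, and Tnfrsf4 missed the threshold. Tnfrsf9, Tnfrsf18 and Tnfrsf1b fell by 0.79, 0.78 and 0.61 on the log2 scale in cage 2 against cage 1 in a fit that also holds the genotype. Of all 14235 genes tested, 10.0% passed the threshold. That is 3 of 10 receptors called lower, against 3.08% of all genes called lower, and 0 of 10 called higher, against 6.96% of all genes. The cages did not overlap for 5 receptors, all lower in cage 2 (Tnfrsf4, Tnfrsf9, Tnfrsf18, Tnfrsf1b and Tnfrsf8), while 26.8% of all genes did not overlap and 11.5% did so with lower values in cage 2. An unadjusted p under 0.05 was found for 8 receptors, 7 of them lower, against 25.7% and 10.6% of all genes. The median log2 difference of the 10 receptors was -0.69, against 0.036 over all genes tested. The cage and anything else that the mice of a cage share cannot be told apart.

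Tnfrsf9 had the smallest p of the receptors. Its 3 libraries of cage 1 lay between 651 and 872 CPM and those of cage 2 between 399.8 and 517 CPM. The means were 733 ± 121 and 458 ± 58.6 CPM (SD, n = 3 each), and the log2 difference of -0.79 had a standard error of 0.12 (edgeR adjusted p = 0.0039). Tnfrsf18 stood at 347 ± 31.6 and 217 ± 47.5 CPM (log2 difference -0.78, standard error 0.15, edgeR adjusted p = 0.0134). Tnfrsf1b stood at 508 ± 41.7 and 347 ± 32.2 CPM (log2 difference -0.61, standard error 0.12, edgeR adjusted p = 0.0136). In each of these 3 genes all libraries of cage 2 lay below all libraries of cage 1. Leaving out 1 library at a time kept the call of Tnfrsf9 in 6 of 6 cases. Those of Tnfrsf18 and Tnfrsf1b ended without control replicate 3 or without cKO replicate 3 (edgeR adjusted p = 0.0543 and 0.0508 for the latter). That of Tnfrsf1b also ended without cKO replicate 1. Without control replicate 3 or cKO replicate 1, the cage term of any gene compared 1 library with 2 of a single genotype.

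Tnfrsf4 and Tnfrsf8 did not overlap between the cages either but missed the threshold. Tnfrsf4 was at 491 ± 84.9 CPM in cage 1 and 304 ± 89.0 CPM in cage 2 (SD, n = 3 each; log2 difference -0.77, standard error 0.23, edgeR adjusted p = 0.0705). Tnfrsf8 was at 48.0 ± 22.5 and 16.5 ± 8.44 CPM (log2 difference -1.84, standard error 0.51, edgeR adjusted p = 0.0531). Both values rest much on control replicate 3, the lowest library of each gene. Without it the log2 difference was -0.31 for Tnfrsf4 and -0.89 for Tnfrsf8, from the cKO libraries alone. Without cKO replicate 1 it was -1.22 and -2.95, from the controls alone. Each of these fits set 1 library against 2. Tnfrsf4 passed without cKO replicate 2 (-0.93, edgeR adjusted p = 0.0313) and Tnfrsf8 without control replicate 1 (-1.44, edgeR adjusted p = 0.0316).

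The other receptors below 0 did not pass. Cd27 had a log2 difference of -0.55 (edgeR adjusted p = 0.125), or -0.72 and past the threshold without cKO replicate 2 (adjusted p = 0.0335), and Fas of -0.84 (0.117). Tnfrsf14 had -0.41 (0.430) and Tnfrsf25 -0.37 (0.588). The single receptor above 0 was Tnfrsf1a, with a log2 difference of 1.40 and a standard error of 0.44 (edgeR adjusted p = 0.0787), at 10.8 ± 5.64 CPM in cage 1 and 20.6 ± 8.39 CPM in cage 2. Its cages overlapped: cKO replicate 2, of cage 2, lay at 10.9 CPM, below both controls of cage 1. Without cKO replicate 1 the difference was 0.85, and without control replicate 3 it was 2.06, neither past the threshold. DESeq2 called Tnfrsf1a (1.44, adjusted p = 0.0169), Tnfrsf4 (-0.75, adjusted p = 0.0048) and Tnfrsf8 (-1.88, adjusted p = 9.1e-04) beside the 3 receptors that edgeR called.

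Other measures of the libraries moved with the cages. The sum of the 6 Treg markers ran from 5237 to 5940 CPM in cage 1 and from 3225 to 4435 CPM in cage 2. Of these 6 genes, 4 were called lower in cage 2, against 3.08% of all genes tested. They were Foxp3 with a log2 difference of -0.65 (edgeR adjusted p = 0.0097), Cd4 with -0.57 (0.0425), Cd3e with -0.64 (0.0204) and Ikzf2 with -0.61 (0.0174). The melanoma sum ran from 48.2 to 472 CPM in cage 1 and from 2333 to 4867 CPM in cage 2, and the macrophage sum from 8.84 to 51.4 and from 16.8 to 249 CPM. Their part in the receptor differences was not tested.

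Scaled to the summed counts of Cd4, Cd3e and Foxp3, a setting chosen after the data were seen, the cage differences of the abundant receptors were small and none of those 4 was called. They were -0.17 for Tnfrsf4, -0.18 for Tnfrsf9, -0.18 for Tnfrsf18 and 0.0071 for Tnfrsf1b (edgeR adjusted p = 0.335 to 0.974). Tnfrsf8 remained at -1.26 (adjusted p = 0.108), and Tnfrsf1a was then called higher in cage 2, at 2.04 (adjusted p = 0.0113). Under TMM, Cd4, Cd3e and Foxp3 were themselves called lower in cage 2, at -0.57, -0.64 and -0.65. Scaling to them raises the cage difference of all genes by nearly the same amount. The move of the abundant receptors toward 0 was therefore set by the reference genes and is no separate result. This scaling moved the median of all genes to 0.65, with 4100 genes called higher and 12 lower, where TMM gave 991 and 438. With total counts as the scaling the median of all genes was -0.30, with 612 called higher and 628 lower. Relative to the median of all genes, the receptor median was -0.73 under each of the 3 scalings. This value could hardly differ between them, since a change of scaling shifts all genes by nearly the same amount.

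**Figure D3:**
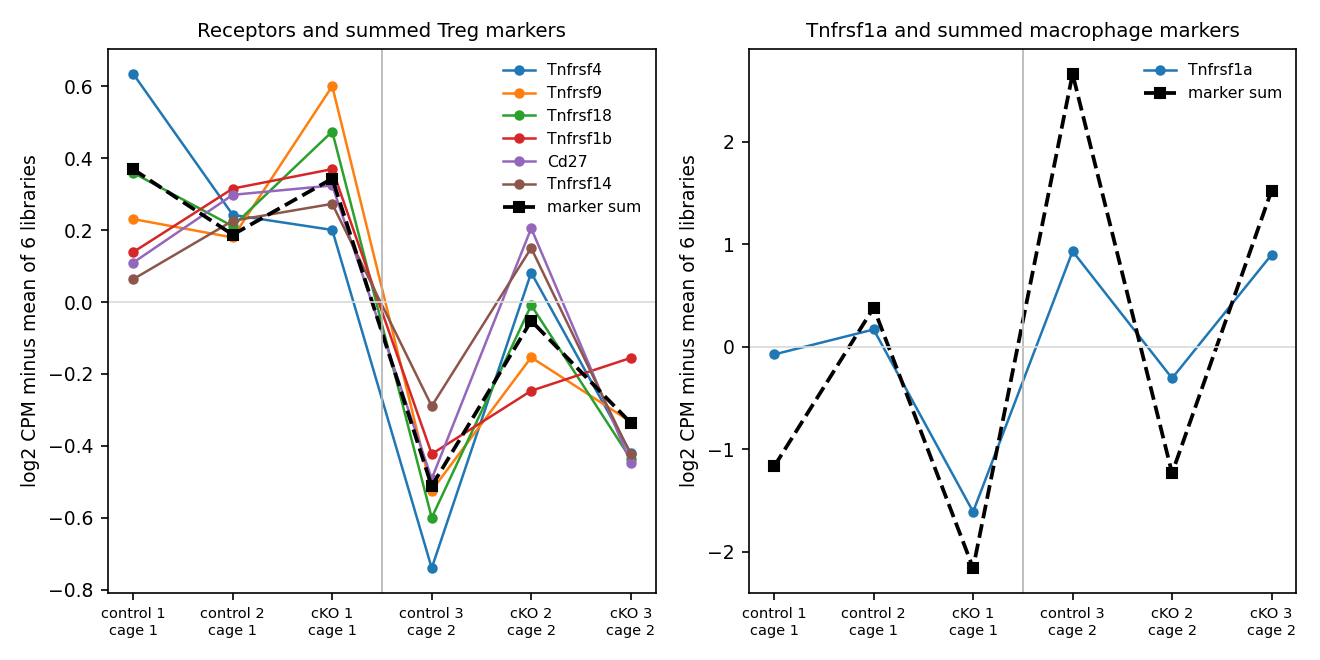
Left, log2 CPM of 6 receptors and of the summed Treg markers (dashed) in each library as a difference from the mean of the 6 libraries; right, the same for Tnfrsf1a and the summed macrophage markers (dashed). The libraries are ordered by cage, and lines only join the points of a gene: the receptors on the left and the Treg markers are lowest in control replicate 3 or cKO replicate 3, and Tnfrsf1a has the same order of libraries as the macrophage markers.

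Tnfrsf1a followed its own order. From lowest to highest its libraries ran cKO replicate 1, cKO replicate 2, control replicate 1, control replicate 2, cKO replicate 3 and control replicate 3. The summed macrophage and monocyte markers ran in the identical order, while the melanoma sum did not, since there cKO replicate 2 lay above both controls of cage 1. Of the defining macrophage genes, Adgre1, C1qa, C1qb, Cd14, Itgam, Fcgr1 and Arg1 had 0 counts in cKO replicate 1, where Tnfrsf1a had 27. Tnfrsf1a is broadly expressed outside lymphocytes, and the part of such cells in its level was not tested.

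The genes closest to an abundant receptor were sought by the root mean square difference of centred log2 CPM over the 6 libraries, among 8194 genes with a mean of at least 10 CPM. Nearest to Tnfrsf4 were Thy1, a surface protein of T cells, at 0.064, Gm2a at 0.087 and Rgs10, a regulator of G protein signalling, at 0.089. Nearest to Tnfrsf9 were Rgs14 at 0.057, the kinase gene Pim1 at 0.061 and Junb, an AP-1 subunit, at 0.071. Close to Tnfrsf18 were the potassium channel gene Kcnn4 at 0.058 and Zdhhc2 at 0.064. Nearest to Tnfrsf1b were Prr13 at 0.037, Arhgap45 at 0.050 and Dcaf15 at 0.054. The receptors themselves lay farther apart: Tnfrsf9 and Tnfrsf18 differed by 0.11, at rank 51 for the first and 36 for the second, and Tnfrsf4 and Tnfrsf18, neighbours on the chromosome, by 0.17. For scale, the centred log2 CPM of these 4 receptors had SDs of 0.29 to 0.45 over the 6 libraries. These are descriptions of 6 libraries that share their cages and depth.

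The ligands ranged from undetected to abundant in the sorted cells. Of 19 listed ligands and partners, 13 were abundant enough to test. Tnfsf18, the GITR ligand, was listed with 0 counts in all libraries, and Tnfsf4, the OX40 ligand, had at most 1.41 CPM in any library, while Ltb, lymphotoxin beta, was at 110 to 188 CPM and Tnfsf10 (TRAIL) at 25.9 to 88.9 CPM. Between the genotypes 0 of the 13 were called, 4 were above and 9 below 0, and the median log2 fold change was -0.23. The smallest p was that of Cd40lg, the ligand by which helper T cells activate CD40. It was at 46.9, 37.1 and 22.4 CPM in the controls and 16.7, 20.3 and 7.89 CPM in the libraries labelled cKO, so all 3 of the latter lay below the controls (log2 fold change -1.25, standard error 0.42, unadjusted p = 0.0190, edgeR adjusted p = 1.00). It was the 1 of the 13 whose groups did not overlap, where 7.62% of all genes did not. Tnfsf14, the HVEM ligand LIGHT, was at 3.40 ± 1.41 and 1.49 ± 0.837 CPM, Tnfsf9, the 4-1BB ligand, at 7.37 ± 1.33 and 10.6 ± 4.64 CPM and Btla, the inhibitory partner of HVEM, at 38.9 ± 16.4 and 30.2 ± 4.75 CPM (SD, n = 3 each), and each of these overlapped between the groups.

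Between the cages 2 of the 13 ligands and partners fell and 0 rose, with 12 of 13 below 0 and a median of -0.74. Over all genes 3.08% were called lower and 6.96% higher. Tnfsf11 (RANKL, the ligand of RANK) was at 41.0 ± 1.99 CPM in cage 1 and 15.6 ± 2.44 CPM in cage 2 (SD, n = 3 each; log2 difference -1.41, edgeR adjusted p = 0.0052). Lta, lymphotoxin alpha, was at 18.2 ± 9.02 and 4.97 ± 1.78 CPM (log2 difference -1.89, edgeR adjusted p = 0.0467). The call of Tnfsf11 ended without cKO replicate 1 (adjusted p = 0.0515) and that of Lta without control replicate 1 or any 1 cKO library (adjusted p = 0.115 to 0.408).

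Of 18 other receptors of the superfamily, 9 were tested. Between the genotypes 0 were called, 5 were above and 4 below 0, and the median was 8.0e-04. The 4 with the smallest p all overlapped between the groups: Tnfrsf22 (log2 fold change 1.03, standard error 0.61), Tnfrsf13b (-0.36, 0.37), Ltbr (0.93, 1.62) and the death receptor Tnfrsf10b (-0.12, 0.24). Between the cages 1 of the 9 rose, against 6.96% of all genes called higher, 0 fell and the median was -0.63. The gene that rose was Ltbr, the lymphotoxin beta receptor, at 0.265, 1.15 and 0 CPM in the libraries of cage 1 and 13.3, 10.1 and 17.0 CPM in those of cage 2 (edgeR adjusted p = 0.0074). The melanoma sum also separated the cages, and the cells that gave the Ltbr reads were not tested. Tnfrsf13b (TACI) stood at 27.5 ± 5.45 and 16.1 ± 3.74 CPM and did not pass (edgeR adjusted p = 0.152).

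All 15 adaptors and proximal signalling genes were tested. Between the genotypes 0 were called, 12 lay above and 3 below 0, and the median was 0.072. Ripk1, a kinase at the TNFR1 complex, was at 103, 109 and 110 CPM in the controls and 142, 122 and 118 CPM in the libraries labelled cKO, all above the controls. Fadd, the adaptor of Fas, was at 11.7, 13.7 and 14.4 CPM against 7.53, 10.2 and 10.6 CPM, all below them. These were the 2 of the 15 whose groups did not overlap, where 7.62% of all genes did not. Neither had an unadjusted p under 0.05 (0.114 and 0.146), and Birc2 (log2 fold change 0.38) and Birc3 (0.24), ubiquitin ligases bound to TRAF2, overlapped between the groups. Between the cages Traf3, a brake of the alternative NF-kB pathway, fell from 237 ± 51.2 to 160 ± 36.1 CPM (log2 difference -0.72, edgeR adjusted p = 0.0147) and Tank from 262 ± 36.9 to 185 ± 35.0 CPM (-0.62, edgeR adjusted p = 0.0222). Both calls ended without control replicate 3 (adjusted p = 0.0684 for Traf3 and 0.107 for Tank), without cKO replicate 1 (0.101 and 0.106) or without cKO replicate 3 (0.0516 and 0.0788), and that of Tank without control replicate 2 (0.0613). The other 13 adaptors did not pass, where 3.08% of all genes were called lower, and the median of the 15 was -0.32.

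All 14 NF-kB subunits, kinases and inhibitors were tested too. Between the genotypes 0 were called, 8 lay above and 6 below 0, and the median was 0.040. The 4 with the smallest p were Nfkb2 (log2 fold change 0.33), Tnfaip3 (0.19), Ikbkb (0.12) and Nfkbie (0.18), and each overlapped between the groups. Between the cages 5 of the 14 fell (Nfkb1, Nfkb2, Nfkbia, Nfkbie and Nfkbid), 0 rose and 14 of 14 were below 0, with a median of -0.46, while 3.08% of all genes were called lower. Nfkbia, the inhibitor that holds NF-kB in the cytoplasm, fell from 764 ± 58.1 to 505 ± 57.9 CPM (log2 difference -0.67, edgeR adjusted p = 0.0081) and Nfkb1 from 526 ± 96.4 to 355 ± 43.5 CPM (-0.67, edgeR adjusted p = 0.0102). The call of Nfkbia ended without control replicate 3 (adjusted p = 0.0602) and that of Nfkb1 without cKO replicate 1 (0.0951) or cKO replicate 3 (0.0515). Nfkb1, Nfkbia, Traf3 and Tank lay at -0.11 to -0.012 when scaled to Cd4, Cd3e and Foxp3, which moved the median of all genes to 0.65. Adam10 and Adam17, proteases that shed TNF receptors from the surface, were called in neither comparison (log2 difference between the cages -0.23 and -0.23, edgeR adjusted p = 0.352 and 0.336). Between the genotypes they stood at -0.18 and 0.17.

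**Figure D4:**
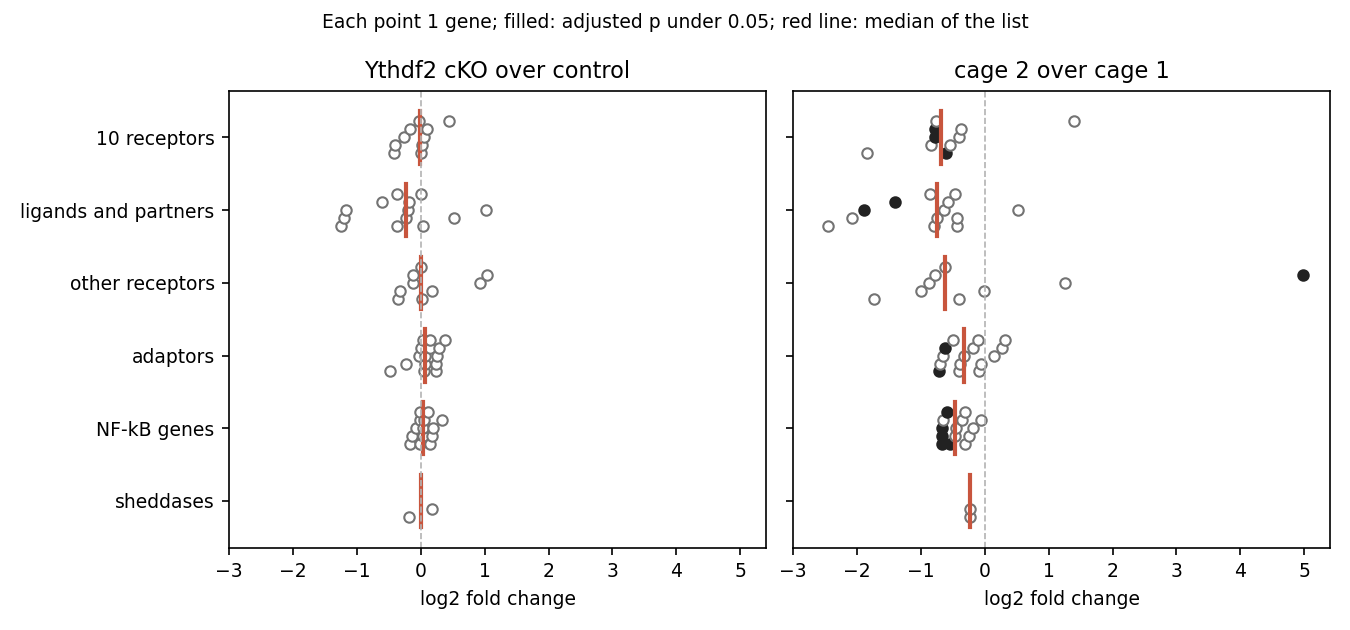
Log2 fold changes of the tested genes of each list (ligands and partners, other receptors, adaptors, NF-kB genes, sheddases and the 10 receptors) for the genotype and the cage comparison, 1 point per gene, filled where the adjusted p was under 0.05, with a red line at the median. Genotype medians lie from -0.23 to 0.072, and cage medians from -0.74 to -0.23.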

How the data were processed

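Total RNA libraries were made with a stranded kit from sorted tumour Treg cells, per the labels' protocols. For each library the authors deposited raw read counts per gene, with no normalization. Trimmomatic 0.39, HISAT2 2.1.0, HTSeq and DESeq2 are named with mm10, per the submitters' processing notes. Neither the annotation used for counting nor its strand setting is stated there. Of the 54446 genes listed, 54409 matched GENCODE M21 by identifier. Rows without a gene were left out: they held 24.6% to 35.8% of the records for reads outside genes, 1.43% to 2.21% for ambiguous and 9.22% to 12.9% for multiply aligned reads.

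The titles gave each library its group, number and cage. Counts were filtered with filterByExpr (minimum count 10, minimum total 15), scaled by TMM and tested with the quasi-likelihood test of edgeR 4.0.16 in R 4.3.3, two-sided, with Benjamini-Hochberg adjustment over all genes tested and a threshold of 0.05. The genotype fit held the group only, and the cage fit group and cage. CPM used TMM-adjusted library sizes, log2 CPM a prior count of 2, and levels per kb the union exon length. The scripts were tested on simulated data. Reads carry no molecular identifiers in these tables and need not be independent molecules. All 6 libraries were distinct, with a chi-square of at least 15.8 per degree of freedom for any pair.

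Members and lists were chosen with earlier results of these data known. Named were Ythdf2, the 10 receptors, up to 4 genes of each list with the smallest p by genotype and up to 2 by cage, and 3 genes nearest to each of 4 receptors. 1 gene named by this rule is left out of the text. Other genes, such as the members of counts of 5 or fewer, were picked with their values in view. The alternatives included DESeq2 1.42.0, limma-voom (limma 3.58.1), RLE factors, total counts, other filters, cage as a term, a block for the replicate number and libraries left out. The scaling to Treg genes and the interaction test were added after the data were seen.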

Additional observations from a re-analysis of the deposited data

How the results depend on the processing

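Between the genotypes 0 genes and 0 receptors were called by edgeR with any of the scalings, with DESeq2 (279 genes at an unadjusted p under 0.05), with limma-voom (239) and with any 1 library left out, where the edgeR fit as reported had 213. Without the low-count filter 33 genes were called, and 460 with control replicate 3 and cKO replicate 1 left out, where genotype and cage coincide, so that the cage fit could not be made there; 0 of the 10 receptors were called in either, though in the latter 5 had an unadjusted p under 0.05 and Ltbr was called (4.197, adjusted p = 0.0156). Total counts moved the median of all genes by genotype to 0.14. Receptor directions between the genotypes were not stable: of 170 values under other settings 32 had the other sign. Leave-one-out values on the log2 scale were -0.45 to 0.14 for Tnfrsf4, -0.25 to 0.26 for Tnfrsf9, -0.26 to 0.20 for Tnfrsf18, -1.21 to 0.0098 for Tnfrsf1a, -0.25 to 0.12 for Tnfrsf1b, -0.87 to 0.57 for Tnfrsf8, -0.13 to 0.19 for Tnfrsf14, -0.12 to 0.25 for Cd27, 0.037 to 0.80 for Fas and -0.38 to -0.014 for Tnfrsf25. Those of other genes were -0.16 to 0.023 for Ythdf2, -0.34 to 0.062 for Tnfrsf10b, -0.58 to 0.0045 for Btla, -0.0052 to 0.21 for Ikbkb, -0.055 to 0.36 for Nfkbie and -0.032 to 0.34 for Tnfaip3. With both ends of the first component left out the log2 fold change was -0.44 for Tnfrsf9, -0.48 for Tnfrsf18, 0.37 for Tnfrsf1a, -0.25 for Tnfrsf14, -0.28 for Cd27, -0.14 for Fas, -0.019 for Tnfsf9, -0.031 for Birc3, -0.087 for Birc2, -0.065 for Nfkb2, -0.12 for Tnfaip3, -0.040 for Ikbkb and -0.25 for Nfkbie. The sign also turned with limma-voom for Tnfrsf14 (-0.085), with total counts for Tnfrsf1b (0.070), Ythdf2 (0.021) and Tnfrsf10b (0.015), with scaling to Cd4, Cd3e and Foxp3 for Tnfrsf18 (-0.0052) and Tnfrsf14 (-0.0079), and with cage as a term for Tnfrsf4 (0.16), Tnfrsf1b (0.17), Tnfrsf8 (0.54) and Ltbr (-0.68). The cause was not tested.

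Same-numbered libraries did not all deviate together (r = 0.41, -0.24 and 0.55 for numbers 1, 2 and 3, and control replicate 2 correlated best with cKO replicate 1, at 0.46). With the replicate number as a block 0 genes were called, 237 had an unadjusted p under 0.05 and 0 receptors were called, and the log2 fold change was 0.0024 for Tnfrsf8 and -0.0070 for Tnfrsf14.

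Between the cages 1429 genes were called, against 2412 with DESeq2, 2347 without the low-count filter, 849 with cage as the only term and 660 to 1234 with each library left out (fewest without cKO replicate 3). Receptors called numbered 3, against 6 with DESeq2, 7 without the low-count filter, 1 with scaling to Cd4, Cd3e and Foxp3, and 1 to 5 with each library left out (1 without control replicate 3 or cKO replicate 3, 5 without cKO replicate 2). That scaling also turned the sign of Tnfrsf1b (0.0071), Tnfrsf25 (0.22), Tnfrsf14 (0.20), Cd27 (0.056), Adam17 (0.39) and Adam10 (0.39). Low counts limit Tnfrsf1a, Tnfrsf8, Tnfrsf25 and Fas most.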
